A study of Mus musculus with 12 samples.

Results

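Klf4 is 1 of 21755 protein-coding genes annotated on mouse chromosomes 1 to 19 and X, and was taken by name. It lies on chromosome 4 of mm10 (GRCm38), chr4:55527143-55532466, on the minus strand (ENSMUSG00000003032), with its transcription start site at 55532466. Its interactions were taken as those with an anchor overlapping a 20 kb window around the gene, from 12.5 kb downstream to 7.53 kb upstream of the start site. Partners were followed from 532 kb downstream to 568 kb upstream. The 35 kb that lie between 42.5 and 77.5 kb downstream of the start site are called the enhancer stretch, and the Hi-C anchors that overlapped it in ESC ran from chr4:55453442 to 55492015. The 35 kb at equal distance on the other side of the window, chr4:55570000-55605000, are called the mirror stretch. They lie 37.5 to 72.5 kb upstream of the start site. In Hi-C the window had 261 of 10237359 interactions in ESC and 295 of 10708066 in NCC. In FGFR1 HiChIP it had 26 of 1921126 in ESC and 73 of 2388222 in NCC, and in CTCF HiChIP 32 of 882215 and 16 of 841945.

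The study compared mouse embryonic stem cells (ESC) of the line E14Tg2A, grown with 100 U/mL of leukemia inhibitory factor (LIF), with neuronal committed cells (NCC) derived from that line. NCC were made by 48 h with 1 µM retinoic acid in medium without LIF. Each of 6 combinations of cell type and assay had 2 biological replicates, 12 samples in all, and the deposited table of each combination holds the merged replicates. Hi-C joins DNA ends that lie close together in the nucleus, and HiChIP keeps those joined ends that an antibody against a chromatin protein, here FGFR1 or CTCF, pulls down. All groups share the genome of 1 cell line, and the loss of LIF and the addition of retinoic acid cannot be told apart. No expression values were used, so the labelled cell types were not checked against marker genes.

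Klf4 encodes a zinc-finger transcription factor of the Krüppel-like family. It belongs to the network that keeps mouse ESC in the naive pluripotent state, and it is one of the factors used to reprogram somatic cells. In ESC its promoter is known to be driven by distal enhancers downstream of the gene, which bind pluripotency factors and come close to the promoter in space. Nuclear FGFR1 (nFGFR1) is a form of a growth factor receptor that acts on chromatin, and CTCF is an architectural protein found at the base of many chromatin loops. The tables hold no enhancer mark, so the name of the stretch rests on the gene's known biology and not on these data.

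An anchor in these tables is a run of restriction fragments, and an interaction is scored by how many read pairs join its 2 anchors. Every anchor of the 6 tables started and ended at a GATC site of GRCm38. One Hi-C anchor over the Klf4 promoter, chr4:55529938-55537584, was called with the same limits in ESC and NCC. The widest Hi-C anchor of the enhancer stretch was chr4:55469584-55484120 in ESC and chr4:55468930-55484120 in NCC. The restriction sites that bound the promoter anchor and the ESC form of the wide enhancer anchor are shown first, since the interaction between them had the highest score of the stretch in each cell type. Each run is 30 bases of the plus strand of GRCm38 with the GATC in capitals.
Start of the promoter anchor, chr4:55529925-55529954: tggatagtctcaaGATCcccagaaacaaag
End of the promoter anchor, chr4:55537571-55537600: ctctcggtcagggGATCactttctagtgtt
Start of the wide enhancer anchor, chr4:55469571-55469600: actgtcatcaccaGATCccaagttcccaag
End of the wide enhancer anchor, chr4:55484107-55484136: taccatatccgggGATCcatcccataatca

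The window held 45 GATC sites, the enhancer stretch 83 and the mirror stretch 70. The GC content was 47.3% in the window, 46.2% in the enhancer stretch and 44.3% in the mirror stretch. The enhancer stretch thus had more possible anchor limits than the mirror stretch of the same length, and the part of this in the counts was not tested.

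Over 20 chromosomes, depth was 20745652 (ESC) and 21228099 (NCC) read pairs for Hi-C. It was 2662606 and 3203872 read pairs for FGFR1 HiChIP, and 1218098 and 1056437 for CTCF HiChIP. With 1 pooled table per cell type and assay there is no error between replicates. A test of the counts therefore compares pooled libraries, and says nothing of variation between cultures. Intervals are at 95% and include only the error of counting. Counts were compared after scaling to the table totals, and levels are given per 1e7 read pairs of the table (per 1e7).

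Klf4 had more Hi-C contacts with its downstream enhancer stretch in ESC than in NCC. In ESC, 46 read pairs joined the Klf4 window to the enhancer stretch, or 22.2 per 1e7 (16.2 to 29.6, exact Poisson interval). In NCC there were 19 read pairs, or 8.95 per 1e7 (5.39 to 13.98). The ESC level was 2.48 times the NCC level (1.42 to 4.48), a log2 ratio of 1.29. The difference passed the exact binomial test after Benjamini-Hochberg adjustment over 17342 genes (p = 0.00069, adjusted p = 0.0071). For those genes the same geometry of window and stretch was placed on each start site in the direction of transcription. Of them, 18.5% were called, 10.2% with more read pairs in ESC and 8.29% with more in NCC. A total of 1111 genes had a larger log2 ratio than Klf4, which is 6.41% of those tested, and the median log2 ratio was 0.06. A contact made in more cells and a contact made more often per cell cannot be told apart in these pooled cells.

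**Figure D1:**
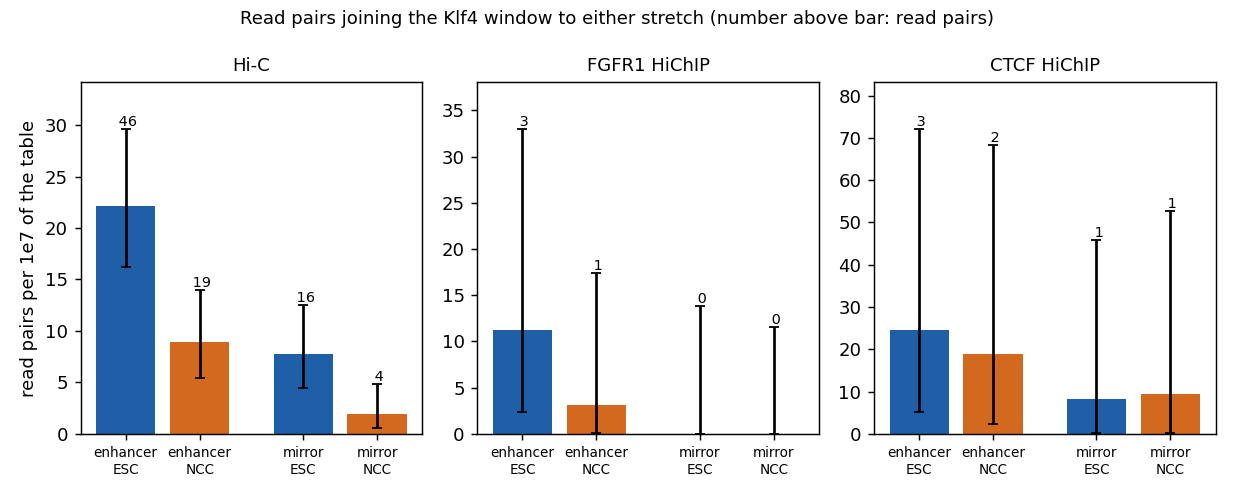
Read pairs per 1e7 of the table that join the Klf4 window to the enhancer stretch or to the mirror stretch in ESC (blue) and NCC (orange), for Hi-C, FGFR1 HiChIP and CTCF HiChIP. Error bars are exact Poisson 95% intervals and the number above each bar is the count of read pairs. The Hi-C panel runs from 46 read pairs (ESC, enhancer) to 4 (NCC, mirror), while no HiChIP bar holds more than 3.

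The Hi-C count rested on several single interactions. In ESC, 11 interactions joined the window to the enhancer stretch, with scores of up to 10 and 1 of them with a score of 1. In NCC there were 9, with scores of up to 6 and 4 of them with a score of 1. The wide anchor, centred 55.6 kb downstream of the start site in ESC, was the strongest partner in the stretch in each cell type, with 18 read pairs in ESC and 9 in NCC. The anchor chr4:55463311-55465748, centred 67.9 kb downstream and at the start of the long non-coding RNA Gm12510, had 10 read pairs in ESC. Its NCC counterpart, chr4:55463311-55465129, had 1. The anchor nearest to the gene, chr4:55486671-55492015 in ESC, had 9 read pairs, and chr4:55486671-55490643 in NCC had 4. The other ESC anchors of the stretch had 2 to 4 read pairs and the other NCC anchors 2 to 3. Of the 5 NCC anchors, each had a lower count than the ESC anchor it overlapped most. The NCC anchor chr4:55450535-55454042, just outside the stretch and not counted in it, had 5 read pairs. It also overlapped the ESC anchor chr4:55453442-55457999, which had 4.

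**Figure D2:**
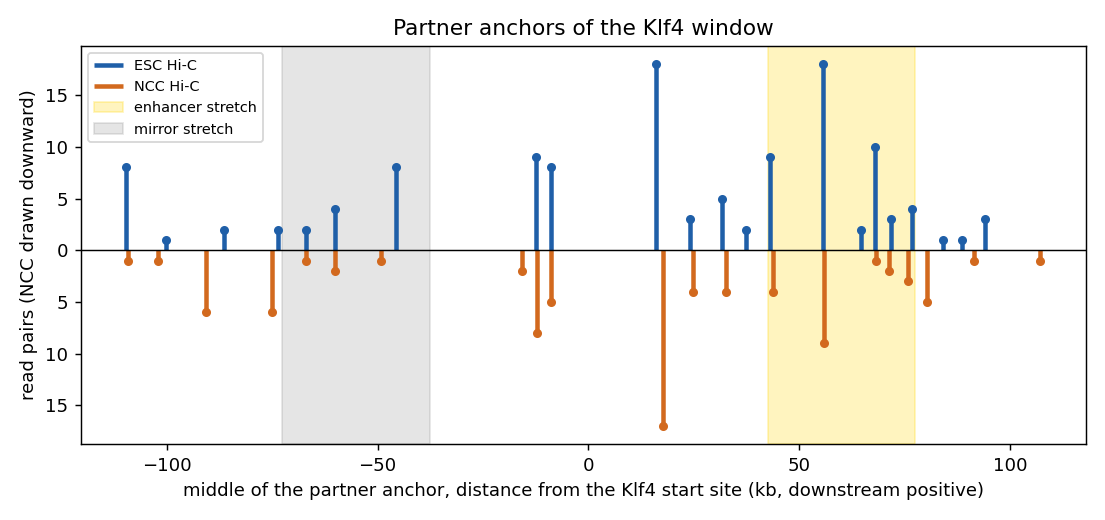
Hi-C read pairs between the Klf4 window and each partner anchor, against the distance of the anchor's middle from the Klf4 start site in kb (downstream positive), with ESC drawn upward in blue and NCC downward in orange. The yellow band is the enhancer stretch and the grey band the mirror stretch. In the yellow band the strongest anchor stands at 18 in ESC against 9 in NCC.

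The promoter anchor allows a comparison in which the Klf4 end is the same piece of DNA. It held 259 read pairs in ESC and 245 in NCC, of which 25 in ESC and 12 in NCC reached the enhancer stretch. Scaled to the table totals, this was 2.13 times more in ESC (1.03 to 4.66). To the mirror stretch it had 12 read pairs in ESC and 2 in NCC.

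The total interaction anchor strength of the Klf4 window was not called as different. The window had 432 Hi-C read pairs in ESC and 406 in NCC, 208 and 191 per 1e7, a ratio of 1.09 (0.949 to 1.25). The adjusted p was 0.277 (exact binomial test), while 68.9% of the 20430 windows tested were, 37.1% with more read pairs in ESC and 31.8% with more in NCC. When only scores of at least 2 were counted, the log2 ratio was 0.55 and the window was called (exact binomial test, adjusted p = 0.00053). The enhancer stretch took a larger part of the window's contacts in ESC. Of the read pairs that joined the window to another anchor of chromosome 4, 46 of 334 were in the enhancer stretch in ESC, or 13.8% (10.5 to 17.9, Wilson interval), and 19 of 333 in NCC, or 5.71% (3.68 to 8.74). Scaled to these contacts, the log2 ratio of ESC to NCC was 1.25 (Fisher's exact test, adjusted p = 0.015). Among genes with at least 100 such read pairs, the median share of the downstream stretch was 5.87% in ESC and 5.86% in NCC. A larger share than that of Klf4 was found at 3.38% of 18055 genes in ESC and at 51.9% of 17823 genes in NCC. In this measure Klf4 was in the upper tail of genes in ESC and close to the middle of them in NCC.

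**Figure D3:**
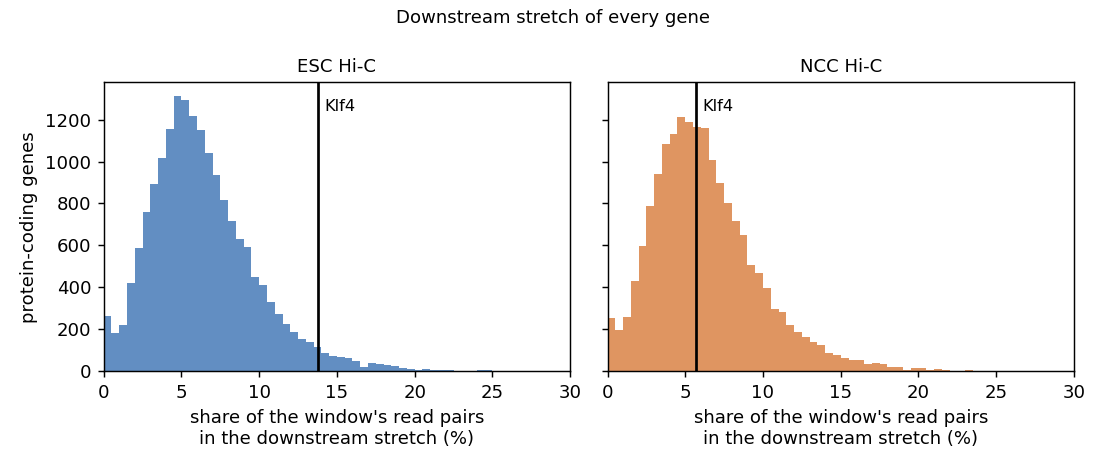
Number of protein-coding genes by the share (%) of the window's read pairs to other anchors of the same chromosome that fell in the downstream stretch, for genes with at least 100 such read pairs in ESC (left) and NCC (right) Hi-C. The vertical line is Klf4, at 13.8% in ESC and 5.71% in NCC, against medians of 5.87% and 5.86%.

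The enhancer stretch itself had more read pairs in ESC, summed over all partners. It held 1088 read pairs in ESC and 642 in NCC, a ratio of 1.73 after scaling (1.57 to 1.91). Read pairs between different anchors of the stretch numbered 129 in ESC and 39 in NCC, a ratio of 3.38 (2.35 to 4.98). This leaves out read pairs inside a single anchor, of which the widest anchor alone held 98 in ESC and 59 in NCC. Of all read pairs of the stretch, the Klf4 window took 46 in ESC, or 4.23% (3.18 to 5.59), and 19 in NCC, or 2.96% (1.90 to 4.58). This share was not called (Fisher's exact test, p = 0.193, adjusted p = 0.497, 8.83% of 17314 genes called). The difference between ESC and NCC at Klf4 was therefore called against the table totals and against the window's own contacts, but not against the contacts of the stretch.

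Klf4 also had more read pairs downstream than upstream at the same distance, in each cell type. In ESC the window had 46 read pairs to the enhancer stretch and 16 to the mirror stretch, a log2 ratio of 1.49 (exact binomial test, adjusted p = 0.00088). Such a test called 21.6% of 17634 genes with more read pairs downstream. In NCC the counts were 19 and 4, a log2 ratio of 2.12 (exact binomial test, adjusted p = 0.0087). Here 22.4% of 17371 genes were called with more read pairs downstream. Without the strongest interaction of each count the NCC call was lost (log2 ratio 1.95, exact binomial test, adjusted p = 0.056). Anchors covered 27868 bp of the enhancer stretch in ESC and 26081 bp in NCC, and 23889 bp and 17826 bp of the mirror stretch.

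The mirror stretch moved in the same direction as the enhancer stretch. It lies over the long non-coding RNA Gm12511 and its contacts with the Klf4 window were 16 read pairs in ESC and 4 in NCC, 4.09 times more in ESC after scaling (1.32 to 16.8, exact binomial test, adjusted p = 0.042). At this distance on the upstream side 17.1% of 17236 genes were called. The ratio of enhancer to mirror contacts was not called as different between ESC and NCC (log2 difference of -0.62, Fisher's exact test, p = 0.568, adjusted p = 0.877). For this test 5.33% of 16786 genes were called. The larger contact of Klf4 in ESC was thus measured on each side of the gene at this distance, but the upstream count depended on the limit of the mirror stretch. The NCC anchor chr4:55605782-55609230, just outside it, had 6 read pairs. The ESC anchor chr4:55604418-55607529, across the limit, had 2 and was counted. In bins of 20 kb from chr4:55560001 to 55620000, ESC and NCC had 8 and 0, 6 and 4, and 4 and 6 read pairs. The first bin was not tested. The others were not called (exact binomial test, adjusted p = 0.83 and 0.96). All read pairs of the mirror stretch numbered 520 in ESC and 315 in NCC, a ratio of 1.69 (1.47 to 1.95). Contacts between the 2 stretches, across the gene, numbered 24 in ESC and 3 in NCC, a ratio of 8.19 (2.49 to 42.5).

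The DNA between the window and the stretches had ratios close to 1. To the 30 kb gap on the enhancer side the window had 37 read pairs in ESC and 37 in NCC, a ratio of 1.02 (0.631 to 1.66). These counts include the anchor that reaches across the limit of the enhancer stretch, with 9 read pairs in ESC and 4 in NCC. In NCC they also include read pairs inside the window, because its anchor chr4:55519850-55523549 reaches into the gap. Anchors wholly in this gap had 18, 5, 3 and 2 read pairs in ESC, and 17, 4 and 4 in NCC. To the 30 kb gap on the other side it had 17 and 15, a ratio of 1.16 (0.545 to 2.49). No test was made of the difference between these ratios and that of the enhancer stretch.

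In bins of 20 kb, the bin of Klf4 showed a peak at the middle of the enhancer stretch in ESC. Its contact with the bin chr4:55460001-55480000 was 33 read pairs in ESC and 12 in NCC, 15.9 and 5.65 per 1e7, a ratio of 2.81 (1.42 to 5.98). Of the 9 bins that had at least 10 read pairs with the Klf4 bin, this was the only bin called (exact binomial test, adjusted p = 0.024), while 8.61% of 430485 bin pairs of the genome were called. The mean at this distance, over all bins of the genome with a counted read pair, was 3.38 per 1e7 in ESC and 3.39 in NCC. The nearest downstream bin had 26 read pairs in ESC and 21 in NCC, so in ESC the peak bin, 3 bins away, had more read pairs than the adjacent bin. In NCC the adjacent bin had more. The bin at the same distance upstream had 6 read pairs in ESC and 4 in NCC. With bins of 40 kb, or with every bin that had a read pair tested, the Klf4 bin had no called partner. Anchors were placed at their midpoints, so the called bin took all read pairs of the wide enhancer anchor, 18 in ESC and 9 in NCC. Part of this anchor lies in the neighbouring bin.

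**Figure D4:**
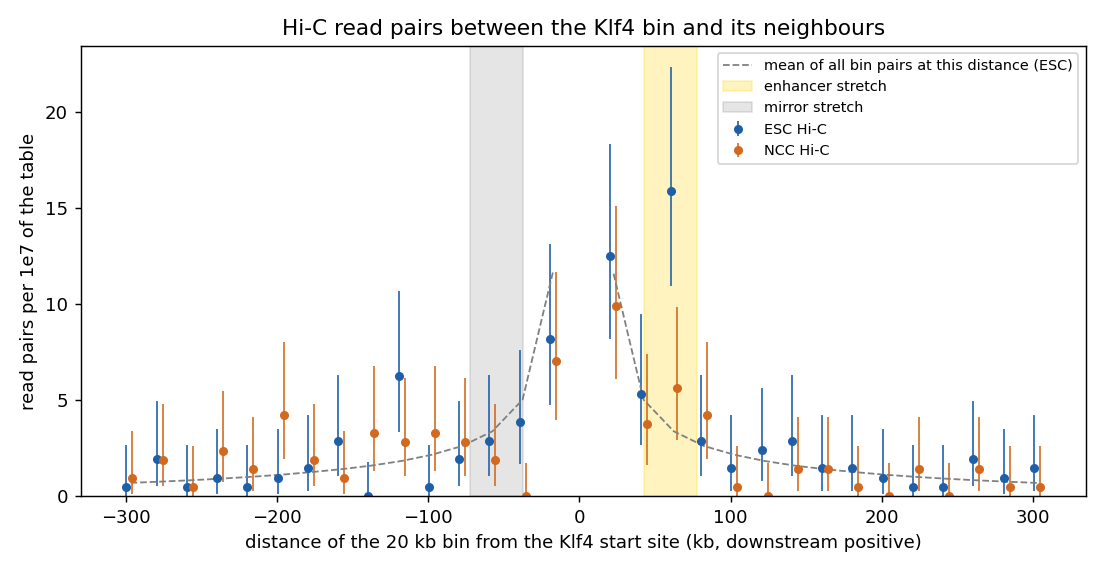
Hi-C read pairs per 1e7 between the 20 kb bin of Klf4 and its neighbouring bins, against the distance of the bin from the Klf4 start site in kb (downstream positive), in ESC (blue) and NCC (orange) with exact Poisson 95% intervals. The dashed line is the ESC mean at that distance over all bins of the genome with a counted read pair. The ESC bin inside the enhancer stretch stands at 15.9 against 5.65 in NCC and a mean of 3.38.

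The contacts of the Klf4 window were also counted over both whole arms. Within 520 kb on each side, the window had 116 read pairs downstream and 80 upstream in ESC, a ratio of 1.45 (1.08 to 1.95). In NCC it had 75 downstream and 90 upstream, a ratio of 0.833 (0.605 to 1.14), whose interval includes equal numbers. The downstream lead in ESC includes the 46 read pairs of the enhancer stretch, and the difference between the cell types was not tested. Read pairs under 100 kb to anchors outside the window made up 26.4% of the window's total in ESC (22.5 to 30.7) and 19.95% in NCC (16.4 to 24.1). This class leaves out read pairs inside a single anchor, 9.49% in ESC and 6.90% in NCC. It also leaves out those between anchors of the window, 4.86% in ESC and 3.45% in NCC. Read pairs between 1 and 50 mb made up 18.3% in ESC (14.9 to 22.2) and 24.1% in NCC (20.2 to 28.5). The intervals of ESC and NCC overlap in each of these classes taken alone. The short classes were not compared as 1 group. Interactions with other chromosomes took 57 read pairs in ESC and 45 in NCC, spread over 18 chromosomes in each, and all of them had a score of 1.

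Among the 16 annotated genes with a start site in the region, Klf4 left aside, those of the enhancer stretch were the strongest partners of the window in ESC. Read pairs were counted within 10 kb of each start site, so that close genes share them. The start of the long non-coding RNA Gm12510, 66.7 kb downstream of Klf4, had 37 read pairs in ESC and 15 in NCC. The start of the small nucleolar RNA Gm22150, 63.3 kb downstream, had 33 in ESC and 12 in NCC. The pseudogene Gm12507, 24.2 kb downstream and outside the stretch, had 26 in ESC and 25 in NCC. The only other protein-coding gene that starts in the region is Rad23b, which encodes a protein of nucleotide excision repair and of proteasomal delivery. Its start lies 182 kb downstream of Klf4 and had 5 read pairs with the Klf4 window in ESC and 3 in NCC, a ratio of 1.71 (0.332 to 10.98). With the enhancer stretch the Rad23b start had 10 read pairs in ESC and 16 in NCC, a ratio of 0.640 (0.259 to 1.499). The intervals of both Rad23b ratios include equal levels. The long non-coding RNA Gm12511, 30.8 kb upstream of Klf4, had 8 read pairs in ESC and was at 0 in NCC, where a count of 0 allows up to 3. The other start sites had 1 to 7 read pairs in each cell type.

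In FGFR1 HiChIP the Klf4 window had 3 read pairs to the enhancer stretch in ESC, all at chr4:55472182-55484120 within the wide Hi-C anchor. In NCC it had 1, at chr4:55486671-55488621. Both tables were at 0 for the mirror stretch, where NCC had no FGFR1 anchor. In CTCF HiChIP the window had 3 read pairs to the enhancer stretch in ESC, all from the promoter to chr4:55463311-55465748, and 2 in NCC. To the mirror stretch it had 1 in each. These counts were under the 10 read pairs required for a test. The ratio of ESC to NCC was 3.61 for FGFR1 (0.290 to 190) and 1.30 for CTCF (0.149 to 15.6), so a difference of the size seen in Hi-C was not detectable at this depth. Among the genes that could be tested, 2.0% of 4103 were called in FGFR1 HiChIP and 0.503% of 795 in CTCF HiChIP.

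The anchor strength of the whole Klf4 window could be tested in the HiChIP tables. With FGFR1 the window had 30 read pairs in ESC and 79 in NCC, 113 and 247 per 1e7, a log2 ratio of -1.12 (exact binomial test, adjusted p = 0.00054). Of 20190 windows, 52.6% were called, 30.3% with more read pairs in ESC and 22.3% with more in NCC. In ESC the window had FGFR1 anchors at chr4:55519850-55521206 (6 read pairs) and at the promoter, chr4:55531997-55537584 (24 read pairs). In NCC the same anchors had 10 and 37 read pairs, and there were 2 more, chr4:55525219-55527465 with 22 and chr4:55539325-55541294 with 14. With the comparison limited to interactions whose anchors overlap an anchor of the other cell type, the log2 ratio was 0.06 (exact binomial test, adjusted p = 0.967), and with scores of at least 2 it was -0.67 (adjusted p = 0.476). The higher FGFR1 signal of the Klf4 window in NCC was thus not seen in the interactions between anchors found in each cell type. Within 520 kb, the FGFR1 contacts in NCC were 3 downstream and 21 upstream, a ratio of 0.143 (0.0273 to 0.478), and in ESC 8 and 4. The NCC counts include the 2 anchors that had no ESC counterpart. Of the 23 NCC interactions in the region followed, 22 had a score of 1, as did 11 of 12 in ESC. The difference between the cell types in this ratio was not tested.

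With CTCF the window had 38 read pairs in ESC and 17 in NCC, 312 and 161 per 1e7, a log2 ratio of 0.93. This did not pass the test (exact binomial test, adjusted p = 0.056), while 37.6% of 18870 windows did. Scaled to read pairs between different anchors of the same chromosome, the log2 ratio was 1.06 and the window was called (exact binomial test, adjusted p = 0.029). The enhancer stretch had 81 CTCF read pairs in ESC and 45 in NCC, a ratio of 1.56 (1.07 to 2.30), and 139 and 140 FGFR1 read pairs, a ratio of 1.19 (0.938 to 1.52).

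Short DNA motifs were located in the window and in both stretches, on both strands of GRCm38. The CTCF consensus, taken as 1 string of 12 letters matched exactly, had no match in any of the 3. Of the genome, 14.8% of all 35 kb tiles and 8.99% of all 20 kb tiles held it. Sites that differ from this string were not searched, and CTCF HiChIP anchors lay in all 3 in each cell type. The octamer ATGCAAAT, the letters read by Oct4 (Pou5f1), had 1 match in the enhancer stretch and 2 in the mirror stretch, and 92.3% of 35 kb tiles held it. The element TCAAGGTCA, read by estrogen-related receptors such as the pluripotency factor Esrrb, had 2 matches in the window, 2 in the enhancer stretch and 4 in the mirror stretch. It was held by 34.0% of 20 kb tiles and 50.4% of 35 kb tiles. The letters GGGTGTGGC of the KLF factors matched 2 times in the mirror stretch, and 34.0% of 35 kb tiles held them. A pair of AGGTCA letters 5 bases apart, the form read by retinoic acid receptors, had no match in any of the 3 and was in 1.37% of 35 kb tiles. A match is a description of the letters and not of binding. The matches of the enhancer stretch and both elements of the window are shown with their flanks and with the motif in capitals, so that those inside an anchor can be set beside those outside of one.
Esrrb-type element of the promoter anchor, chr4:55536681-55536709, minus strand: ggtgtgaagtTCAAGGTCAcctttttcta
Esrrb-type element of the window outside the promoter anchor, chr4:55525119-55525147, minus strand: gaatagaaagTCAAGGTCAtccttacctg
Esrrb-type element inside the wide enhancer anchor, chr4:55476415-55476443, plus strand: aggaacacaaTCAAGGTCAggacctaagt
Esrrb-type element between enhancer anchors, chr4:55462929-55462957, plus strand: aggagtgaatTCAAGGTCAgtcatcaaag
Octamer between enhancer anchors, chr4:55485549-55485578, minus strand: aagacttagacATGCAAATccttgcccact

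The element inside the wide anchor lies 56.0 kb downstream of the Klf4 start site and within a Hi-C and an FGFR1 anchor of each cell type. The element of the promoter anchor lies 4.23 kb upstream of the start site. It is within an anchor of every table except that of CTCF HiChIP in NCC. The other element of the window, 7.33 kb downstream of the start site, lies within an anchor of ESC Hi-C and of no other table. The element between enhancer anchors, 69.5 kb downstream, and the octamer of the enhancer stretch, 46.9 kb downstream, lie in no anchor of the 6 tables.

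Klf4 was compared with Sox2, Nanog and Pou5f1, the genes of other core pluripotency factors, in the same geometry. Sox2 had 60 read pairs with its downstream stretch in ESC and 43 in NCC, a ratio of 1.43 (0.949 to 2.16). Nanog had 72 and 81, a ratio of 0.910 (0.653 to 1.27). Pou5f1 had 90 and 68, a ratio of 1.35 (0.977 to 1.88). None of these 3 was called (exact binomial test, adjusted p from 0.202 to 0.777), and the difference between them and Klf4 was not tested. In ESC the downstream stretch took 4.76% of the window's contacts at Sox2, 8.82% at Nanog and 7.59% at Pou5f1, against 13.8% at Klf4. In NCC it took 4.47% at Sox2, 12.0% at Nanog and 7.49% at Pou5f1, against 5.71% at Klf4. The whole windows of these 3 genes were each called higher in ESC, beside 37.1% of all windows, while that of Klf4 was not called. The geometry was set by the Klf4 locus, so it need not reach the enhancers of these genes.

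Among 25 regulators of naive pluripotency, Klf4 included, 23 had enough read pairs in the downstream stretch. Of these, 4 were called with more read pairs in ESC, 1 with more in NCC, and 18 were not called. Over all 17342 genes tested, 10.2% were called higher in ESC and 8.29% higher in NCC. Without Klf4 it was 3 of 22 called higher in ESC, a share near that of all genes. The median log2 ratio was 0.34 against 0.06 over all genes. The whole 20 kb windows of these regulators were also higher in ESC, with a median log2 ratio of 0.29 against 0.03 over all windows. Of the 25 windows, 16 were called higher in ESC and 2 higher in NCC, beside 37.1% and 31.8% of all windows. Whether the stretches differed beyond their windows was not tested for the list. The gene of the factor Klf5 had 71 read pairs in ESC and 22 in NCC, a ratio of 3.30 (2.02 to 5.597). Prdm14, a repressor of differentiation genes, had 107 and 54, a ratio of 2.03 (1.45 to 2.87), and Fbxo15, a marker gene of pluripotent cells, had 25 and 7, a ratio of 3.65 (1.54 to 10.0). The gene called with more read pairs in NCC was Gbx2, which encodes a homeobox factor of naive cells and of the early neural tube, with 99 and 161, a ratio of 0.629 (0.485 to 0.813).

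Of the 17 genes of the KLF family, 16 had enough read pairs and 4 were called, each with more read pairs in ESC, beside 10.2% of all genes. Without Klf4 it was 3 of 15. The called genes were Klf4, Klf5, Klf3, with 73 read pairs in ESC and 41 in NCC, and Klf16, with 115 and 76. The median log2 ratio of the family was 0.28. Klf2, which acts together with Klf4 and Klf5 in ESC, had 60 and 51, a ratio of 1.20 (0.815 to 1.78), and was not called (exact binomial test, adjusted p = 0.579). The window of Klf4 was among the 4 of 17 KLF windows that were not called in total anchor strength, while 9 were called higher in ESC and 4 higher in NCC. Over all windows, 37.1% were called higher in ESC and 31.8% higher in NCC, and 68.9% in all.

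**Figure D5:**
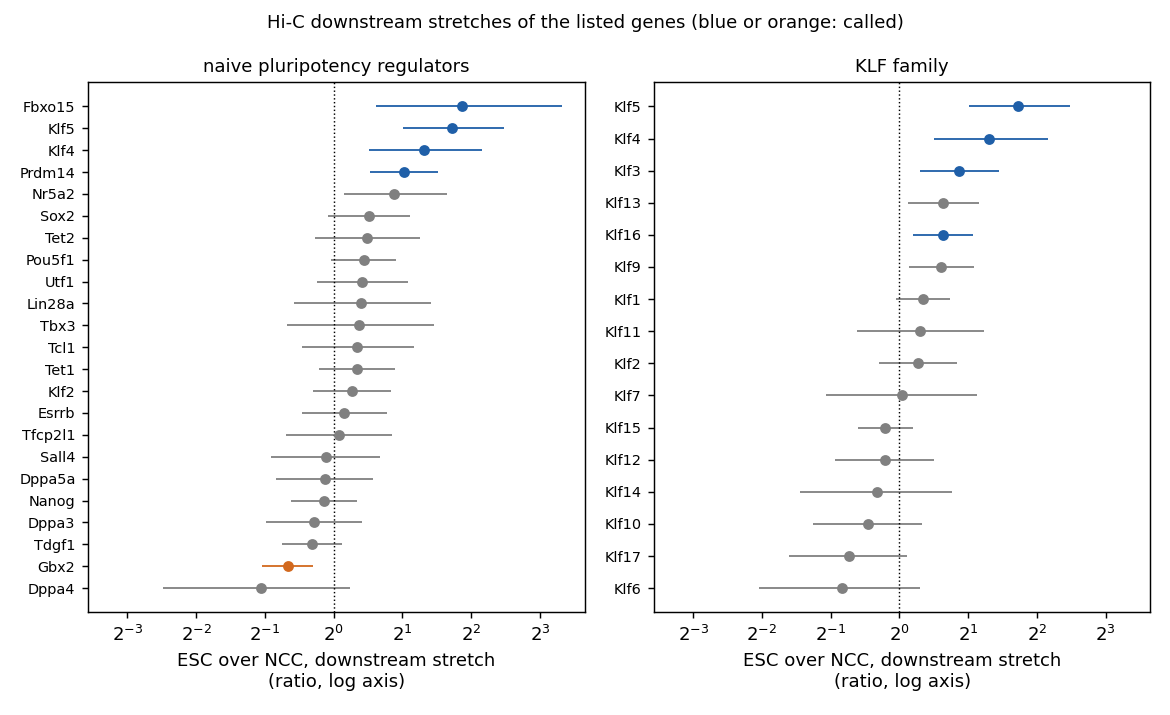
Ratio of ESC to NCC Hi-C read pairs (log axis) between each gene's window and its downstream stretch, scaled to the table totals, for the regulators of naive pluripotency (left) and the KLF family (right) with at least 10 read pairs. Bars are 95% counting intervals, blue marks genes called higher in ESC, orange higher in NCC and grey not called. Klf4 stands at 2.48 and Klf5 at 3.30, above Klf2 at 1.20.

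The genes with the pattern most like that of Klf4 were taken by the Euclidean distance over the 6 tables of log2 read pairs per 1e7 in the downstream stretch, among 15469 genes with at least 20 Hi-C read pairs. They were Akap8, the gene of a nuclear anchoring protein of protein kinase A, at a distance of 0.703, Tstd1 at 0.822, Prkar1a, the gene of a regulatory subunit of that kinase, at 0.843, Phb, the gene of prohibitin, at 0.912, and Kcnk16, a potassium channel gene, at 0.922. Akap8 had 44 Hi-C read pairs in ESC and 18 in NCC, close to the 46 and 19 of Klf4. The others had a smaller difference between ESC and NCC in Hi-C. Tstd1 had 43 and 29, Prkar1a 33 and 21, Phb 34 and 21, and Kcnk16 44 and 32. In the HiChIP tables these 5 genes and Klf4 had 1 to 4 read pairs each, so that part of the likeness rests on few counts.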

How the data were processed

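Each score, as deposited, counts the read pairs assigned to 1 interaction. The authors made these counts from Hi-C and HiChIP reads with HiC-Pro (duplicates removed) and hichipper (default settings, each sample with all reads as anchor input, all connection types) on mm10, and pooled both replicates. Their methods equalize valid pairs of ESC and NCC for comparisons, and do not say whether this was done before the deposited counts were made. The values are whole numbers whose totals differ between tables, so they were scaled to the table totals here. The methods apply no q threshold to most analyses. Read pairs carry no molecular identifiers. All 6 tables were used, on chromosomes 1 to 19 and X (at least 99.1% of the scores of each).

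An interaction was counted for a window or stretch when an anchor overlapped it. The 20 kb window, the 35 kb downstream stretch and the mirror stretch of Klf4 were placed on the start site of every protein-coding gene of GENCODE vM21. ESC and NCC were compared by a two-sided exact binomial test against the table totals, sides against equal shares, and ratios or shares by Fisher's exact test. Benjamini-Hochberg adjustment ran over all genes with at least 10 read pairs, at a threshold of 0.05. Log2 ratios had a pseudocount of 0.5. Intervals are 95% (exact Poisson or binomial for counts and ratios, Wilson for shares), and a count of 0 allows up to 3 read pairs. Bins of 20 kb, up to 27 bins apart, were tested in the same way with anchors at their midpoints. Anchor coordinates are 1-based, as a check against GATC sites showed.

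The genes named were Klf4, genes that start in the region, Sox2, Nanog and Pou5f1, the called members of the pluripotency and KLF lists with Klf2, and the 5 genes most like Klf4. Klf2 and the list members shown by value were chosen after their values were seen. The members and lists were chosen with earlier results of these data known. Alternatives were the score minimum, anchor placement, shared anchors, a 10 kb viewpoint, scaling, the strongest interaction, the minimum count and the bin size. Steps were tested on simulated data. Python 3.11.15, numpy 2.4.6, scipy 1.17.1, pandas 2.3.3 and matplotlib 3.10.9 were used.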

Additional observations from a re-analysis of the deposited data

How the results depend on the processing

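No paired analysis was possible because the replicates were merged in the deposited tables, and for the same reason no replicate could be left out. Of 84 alternative values, 66 were counted as unchanged. Tested values had to keep the direction and the side of the threshold. Numbers of genes or bins called had to stay within a fixed fold of the main number. Values with no test had to stay within the counting interval. Among the values with no test, the log2 ratio of CTCF read pairs between Klf4 and its enhancer stretch ran from -1.79 to 2.25, with either sign, around 0.28. The Hi-C difference of Klf4 with its enhancer stretch kept its call under all 7 alternatives from the original list, with log2 ratios from 1.21 to 1.71. It lost the call when scaled to all read pairs of the stretch (0.49), an alternative chosen after seeing the data. The Hi-C strength of the Klf4 window was called with scores of at least 2 (0.55). The NCC lead of the enhancer over the mirror stretch lost its call without the strongest interaction (1.95). The FGFR1 strength of the window lost its call with scores of at least 2 (-0.67) and changed sign with shared anchors (0.064). The CTCF strength was called with intra-chromosomal scaling (1.06). For the number of genes called, midpoints gave 1957 in Hi-C in place of 3213. FGFR1 HiChIP gave 187 with scores of at least 2, 32 with midpoints, 4 with shared anchors and 8 without a minimum count, in place of 82. CTCF HiChIP gave 29, 0 with midpoints, 2 and 0 in that order, and 0 with intra-chromosomal scaling, in place of 4. The Klf4 bin had 0 called partners with 40 kb bins or without a minimum count, in place of 1. The causes were not tested. HiChIP ratios with no read pair left under an alternative have no value. The 1 to 3 HiChIP read pairs between Klf4 and its enhancer stretch set the depth limit.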
